A study of Mus musculus with 16 samples.

Results

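The 16 mouse hippocampus arrays of the study were ranked by the deposited series matrix value of 1 probe for Slc17a6, the gene of the vesicular glutamate transporter VGLUT2, and the 4 highest arrays were set against the 4 lowest. These 8 of 16 arrays are called the high set and the low set, and the other 8 belong to neither. The ranking crosses the study's own groups. The label given to the contrast names the thalamic content of the dissected tissue, and that label was checked against thalamic markers other than Slc17a6. Since the arrays were chosen by a measured value, every difference between the sets is a description with no test.

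The study measured total RNA of the hippocampus of C57BL/6J mice, all labelled male, aged 2 or 12 months. A subcutaneous minipump delivered Δ9-tetrahydrocannabinol (THC, the main psychoactive cannabinoid) at 3 mg/kg/day for 28 days, or a vehicle of ethanol, cremophor and saline, and the mice were killed after a drug-free interval with behavioural testing in a water maze. The groups were control_Young (2 months, vehicle, 3 arrays), control_Old (12 months, vehicle, 5 arrays), THC_Young (2 months, THC, 3 arrays) and THC_Old (12 months, THC, 5 arrays). Arrays are named by group and by a number given in accession order, which pairs nothing. Between 41.1% and 45.9% of the 45281 probes were detected on each array.

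VGLUT2 loads glutamate into synaptic vesicles. In the adult mouse forebrain Slc17a6 is strong in thalamic relay neurons and also present in the hypothalamus, the habenula, the subiculum and retrosplenial cortex, whereas most hippocampal pyramidal and granule cells use VGLUT1, encoded by Slc17a7. A dissected hippocampus borders on thalamus, subiculum, retrosplenial cortex and choroid plexus. Its own output neurons differ by field, with CA1, CA2, CA3 and dentate granule cells each expressing their own marker genes.

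The high set held THC_Young 1, control_Old 4, THC_Young 3 and control_Old 2, whose series matrix values of Slc17a6 were 12.14, 11.69, 11.43 and 11.23 on the log2 scale. The low set held THC_Old 2, control_Old 3, control_Young 2 and control_Young 3, at 10.15, 10.01, 9.76 and 8.57. The array just outside the high set, THC_Old 3, lay at 11.10, and the array just outside the low set, THC_Old 5, at 10.22, so both borders cut through closely spaced values. A second Slc17a6 probe ranked the same 4 arrays highest and shared 7 of 8 arrays in all, with THC_Old 5 in the place of THC_Old 2.

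**Figure D1:**
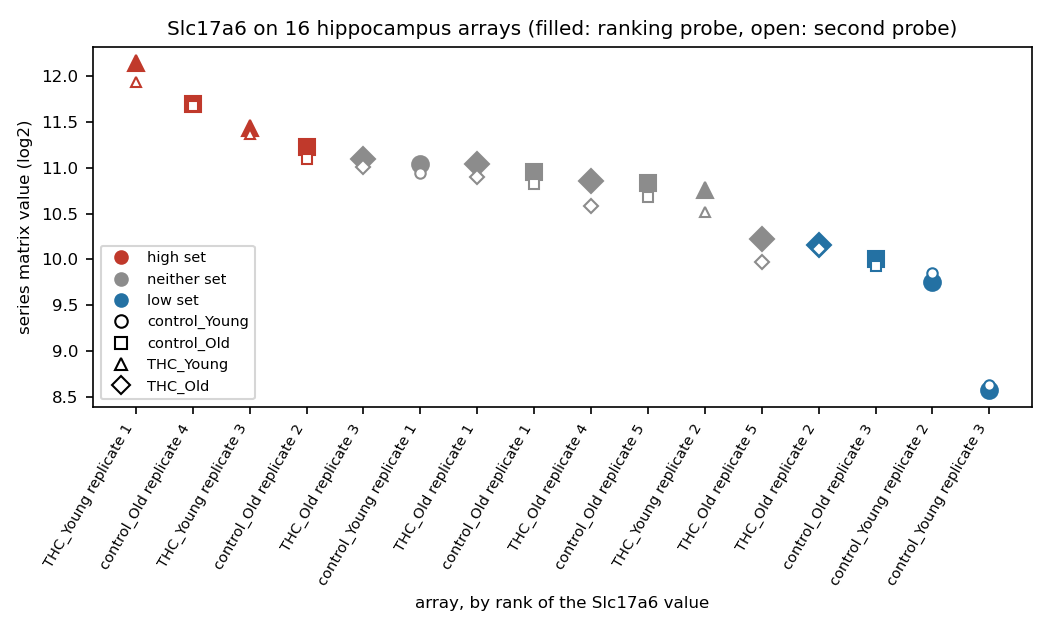
Series matrix log2 value of Slc17a6 on each of the 16 arrays, in rank order, with the ranking probe as filled and the second probe as open symbols, colours for the sets and shapes for the study groups. The high set runs from 11.23 to 12.14 and the low set from 8.57 to 10.15, and control_Young 3 lies apart at the low end.

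By study group, the same Slc17a6 value averaged 11.44 ± 0.69 (SD, n = 3) in THC_Young, 10.94 ± 0.62 (n = 5) in control_Old, 10.68 ± 0.45 (n = 5) in THC_Old and 9.79 ± 1.24 (n = 3) in control_Young. Neighbours in that order differed by less than the larger of their SDs. The ends of the order, THC_Young and control_Young, differed by more than either of their SDs. Their ranges overlapped, at 10.76 to 12.14 and 8.57 to 11.05. Both sets held 2 arrays of 2-month and 2 of 12-month mice. The high set held 2 arrays of THC mice and the low set 1, and no THC_Young array was in the low set and no control_Young array in the high set. Set and study group therefore overlap in part.

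A check of sex-linked genes went against the label of 9 of the 16 arrays. On these 9 arrays Xist, the RNA that silences an X chromosome in female cells, lay between 11.48 and 12.35, and the Y-linked genes Eif2s3y and Kdm5d lay at 4.25 to 4.41 and 4.27 to 4.44. On the other 7 arrays Xist lay between 4.27 and 4.40, Eif2s3y between 7.62 and 9.45, and Kdm5d between 5.52 and 6.50. These values are log2 intensities after background correction and quantile normalization with neqc, the scale of all gene values below. The 9 arrays with high Xist included all 4 of the low set, THC_Young 1 and THC_Young 3 of the high set, and 3 of the arrays in neither set. Their Slc17a6 values had a median of 10.84 and a range of 8.57 to 12.14, and the 7 arrays with low Xist had a median of 11.04 and a range of 10.22 to 11.69. No low array remains without the 9, so the differences below were also taken between the high and low arrays with high Xist (2 against 4), an alternative chosen after seeing the data. The part of this mismatch in the differences was otherwise not tested.

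Of 22625 probes detected on at least 3 of 16 arrays at a detection p under 0.05, 1183 were higher on every high array than on every low array (5.23%), and 688 were lower (3.04%). A difference was counted as called where the sets did not overlap and their means differed by at least 1 on the log2 scale, or 2-fold. By that rule 43 probes were called higher (0.19%) and 32 lower (0.141%). With 1 probe per gene, 775 of 12020 genes lay higher with no overlap (6.45%) and 332 lower (2.76%), and 29 (0.241%) and 21 (0.175%) were called. The median difference over all genes was 0.03, and 54.3% of genes had a higher mean in the high set. Without background correction 11 probes were called higher and 5 lower, after removal of study group means 7 and 3, and among high Xist arrays only, with fewer arrays to overlap, 101 and 73.

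Below, the values of a gene on the high arrays are given in the order THC_Young 1, control_Old 4, THC_Young 3, control_Old 2, and those on the low arrays in the order THC_Old 2, control_Old 3, control_Young 2, control_Young 3. Slc17a6 itself was 11.60 ± 0.40 in the high and 9.46 ± 0.84 in the low set after neqc, a difference of 2.15 (4.42-fold) that the ranking fixed. Slc17a7, the transporter gene of hippocampal and cortical excitatory neurons, was 12.31 and 12.72, with overlapping sets. In bulk tissue fewer cells of a type and less RNA per cell cannot be told apart.

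The thalamic markers were higher as a list, but few of them separated the sets. Of 22 listed genes 18 were measured above the filter, and 17 of these 18 had a higher mean in the high set, with a median difference of 0.52 against 0.03 over all genes. Only Ntng1, the gene of an axonal adhesion protein, had no overlap, 1 of 18 against 6.45% of all genes. Its 3 other probes differed by 0.11, 0.22 and 0.09 with overlap. Synpo2, Plekhg1, Ptpn3 and Slitrk6 did not pass the filter.

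Tcf7l2, a transcription factor of thalamic neurons, was at 9.76, 7.90, 8.30 and 7.62 on the high arrays and at 6.27, 7.80, 6.56 and 6.57 on the low arrays. The other 8 arrays ran from 6.20 to 8.41 with a median of 6.65. Tcf7l2 was thus high on all 4 high arrays, but control_Old 3 of the low set lay above control_Old 2, and THC_Old 1 of neither set lay above THC_Young 3.

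Gbx2, a homeobox gene of the developing thalamus, was at 7.97, 5.83, 7.79 and 7.61 against 4.42, 6.66, 4.52 and 4.30. It was detected on 1 of the 4 low arrays, and that array, control_Old 3, lay above control_Old 4. Among the arrays in neither set it was detected on 1. Gbx2 thus passed the filter only with the high arrays counted, yet it is part of the list counts above. The difference of means, 2.33, rests on values not above background and was 1.10 without background correction. The troponin gene Tnnt1 was at 9.38, 7.47, 7.92 and 7.63 against 5.61, 8.38, 5.75 and 5.81, a difference of 1.71. The protein kinase gene Prkcd was at 9.14, 6.89, 8.05 and 7.77 against 6.66, 8.68, 6.87 and 6.51, a difference of 0.78. In each of the 3 genes control_Old 3 stood far above the other low arrays, and among arrays in neither set THC_Old 1 stood highest, at 7.16, 8.98 and 9.13.

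Ordered by the mean of the 18 thalamic markers, the arrays ran from THC_Young 1 (8.36) through THC_Old 1 (7.81), control_Old 3 (7.79), THC_Young 3 (7.69), control_Old 4 (7.65) and control_Old 2 (7.47). All 4 high arrays were among the highest 6, but so was 1 low array. Without control_Old 3 the median difference of the list was 0.74, among high Xist arrays 0.73, and between the 2 high arrays with low Xist and the low set 0.37. It fell to 0.18 with study group means removed and to 0.19 in arrays of 12-month mice only. The set chosen by Slc17a6 is accordingly not a clean split by thalamic markers, and it is named here by its rule.

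**Figure D2:**
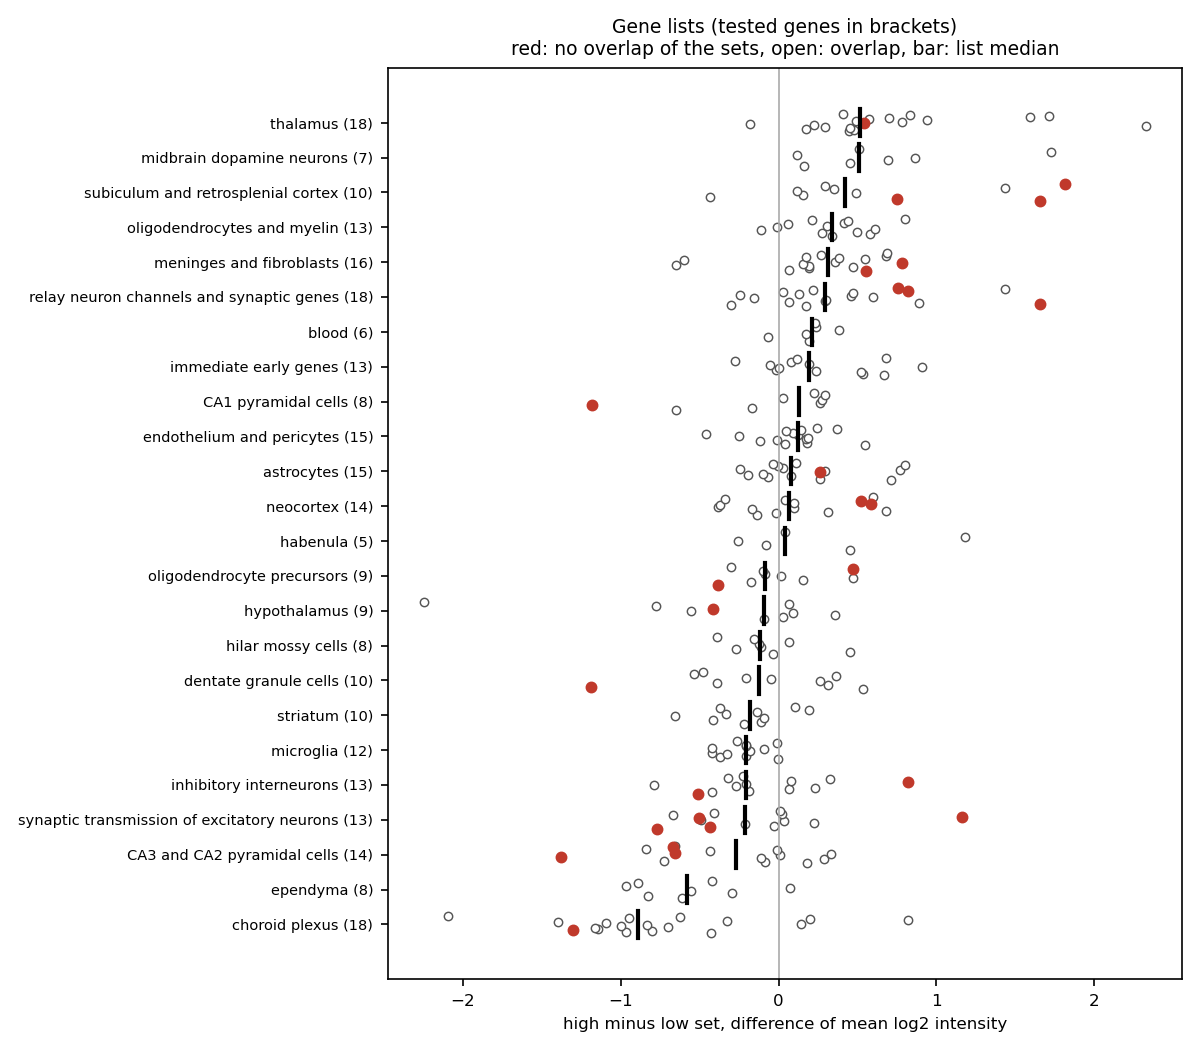
Difference of mean log2 intensity, high minus low set, for each tested gene of 24 marker lists, with red points for genes whose sets do not overlap and a bar at each list's median. The thalamus list has the highest median, 0.52, but 1 red point, and the midbrain dopamine neuron list is next at 0.51 with 0. The subiculum and retrosplenial list and the relay neuron list have 3 each on the right. The CA3 and CA2 list and the excitatory synapse list have 3 each on the left.

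Among markers of the subiculum and retrosplenial cortex, 9 of 10 tested genes had a higher mean, with a median difference of 0.42. The mean of the list ran from 7.60 to 7.82 on the high and from 6.81 to 7.37 on the low arrays. Of the 10 genes, 3 lay higher with no overlap, against 6.45% of all genes. The 3 genes were Tshz2, Cbln1 and Cntn6, the last a neuronal contactin that differed by 0.75.

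Tshz2, which encodes a zinc finger transcription factor, was at 8.58, 9.38, 9.11 and 9.29 against 8.47, 6.62, 7.73 and 6.30, and the other 8 arrays ran from 7.23 to 9.58 with a median of 9.09. The difference was 1.81, or 3.52-fold, and 3 other Tshz2 probes differed by 1.37, 0.44 and 1.38 with overlap. Cbln1, the gene of a secreted organizer of synapses, was at 9.32, 9.37, 9.66 and 9.58 against 7.98, 7.50, 8.07 and 7.77, a difference of 1.65 or 3.15-fold. The other 8 arrays spread over both ranges in Cbln1, from 7.79 to 9.96, and THC_Old 5 was the lowest of the 8 in both genes. The sodium channel subunit gene Scn4b of the same list differed by 1.44, with overlap because control_Young 2 reached 8.56 and control_Old 2 was at 8.54.

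Further genes were called. Amn, a partner of cubilin in vitamin B12 uptake, was at 8.35, 8.94, 8.82 and 9.54 against 7.88, 7.14, 7.53 and 7.27. Cpne9, a calcium-dependent membrane-binding copine, was at 10.53, 9.98, 9.62 and 9.40 against 8.60, 8.96, 8.19 and 7.96. The high arrays lay above all low arrays in both, by 1.46 in the mean, although a second Cpne9 probe differed by 0.67 with overlap. Grm4, the gene of a metabotropic glutamate receptor of presynaptic terminals, differed by 1.16, with SDs of 0.08 in the high and 0.12 in the low set, but a second, dimmer Grm4 probe differed by 0.02.

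Among the leading genes were several transcription factor genes. Tfap2b, of the AP-2 family, was at 7.61, 7.62, 5.82 and 5.51 on the high arrays and not detected on any low array, where it lay between 4.39 and 4.52. Taking the dimmest detected signal as a floor, this probe was at least 3.59-fold higher on the background-corrected scale. The 2 other Tfap2b probes differed less, by 1.66 with no overlap and by 1.28 with overlap. Sox14 was at 6.84, 6.80, 5.30 and 5.06, was not detected on any low array, and was at least 2.30-fold higher on the same scale. Without background correction Tfap2b differed by only 0.94 and Sox14 by 0.52, so both bounds hold only after that correction. THC_Young 1 and control_Old 4 stood above the other 2 high arrays in both genes.

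Ebf3, an early B cell factor gene with roles in neurons, was at 8.32, 8.98, 7.05 and 5.61 against 5.45, 5.52, 5.27 and 5.08. The difference of its means was 2.16, although control_Old 2 lay only just above the low arrays. The homeobox gene Irx3 was at 7.39, 7.16, 6.31 and 5.56 against 4.92, 5.38, 4.92 and 4.75, a difference of 1.61, and THC_Old 1 and THC_Old 5 of neither set reached 6.68 and 6.23. Pou4f1, a factor of habenula and midbrain neurons, was detected on 3 high arrays and on no other array. Pou4f1 thus passed the filter only through the high set, and the filter favoured a higher value there. It reached 6.69 on control_Old 4 and 6.09 on THC_Young 1 and was at least 1.66-fold higher in the mean, but control_Old 2, at 4.31, did not exceed the low arrays. Pou4f1 differed by only 0.45 without background correction, so its bound too holds only after that correction. The habenula list as a whole did not differ in this way. Of its 5 tested genes 3 had a higher and 2 a lower mean, and 0 had no overlap. Their median difference was 0.04, against 0.03 over all genes.

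THC_Young 1 also stood apart in markers of midbrain dopamine neurons. The dopamine transporter gene Slc6a3 was at 9.53 there and at 4.70, 6.48 and 4.63 on the other high arrays, with 4.47 to 4.81 on the low arrays. The homeobox gene En1 was at 7.06 on THC_Young 1 and between 4.28 and 5.01 on the other high arrays. En1 was detected on 3 high arrays, on no low array and on 1 array of neither set. It thus passed the filter only with the high arrays counted. All 7 tested genes of that list, En1 included, had a higher mean in the high set. Their median difference was 0.51, but 0 of 7 had no overlap. The list mean ran from 6.73 to 8.68 on the high and from 6.69 to 6.98 on the low arrays. On THC_Old 5 of neither set it was 7.52, with Slc6a3 at 7.21. Whether tissue beside the hippocampus contributed to these values was not tested.

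**Figure D3:**
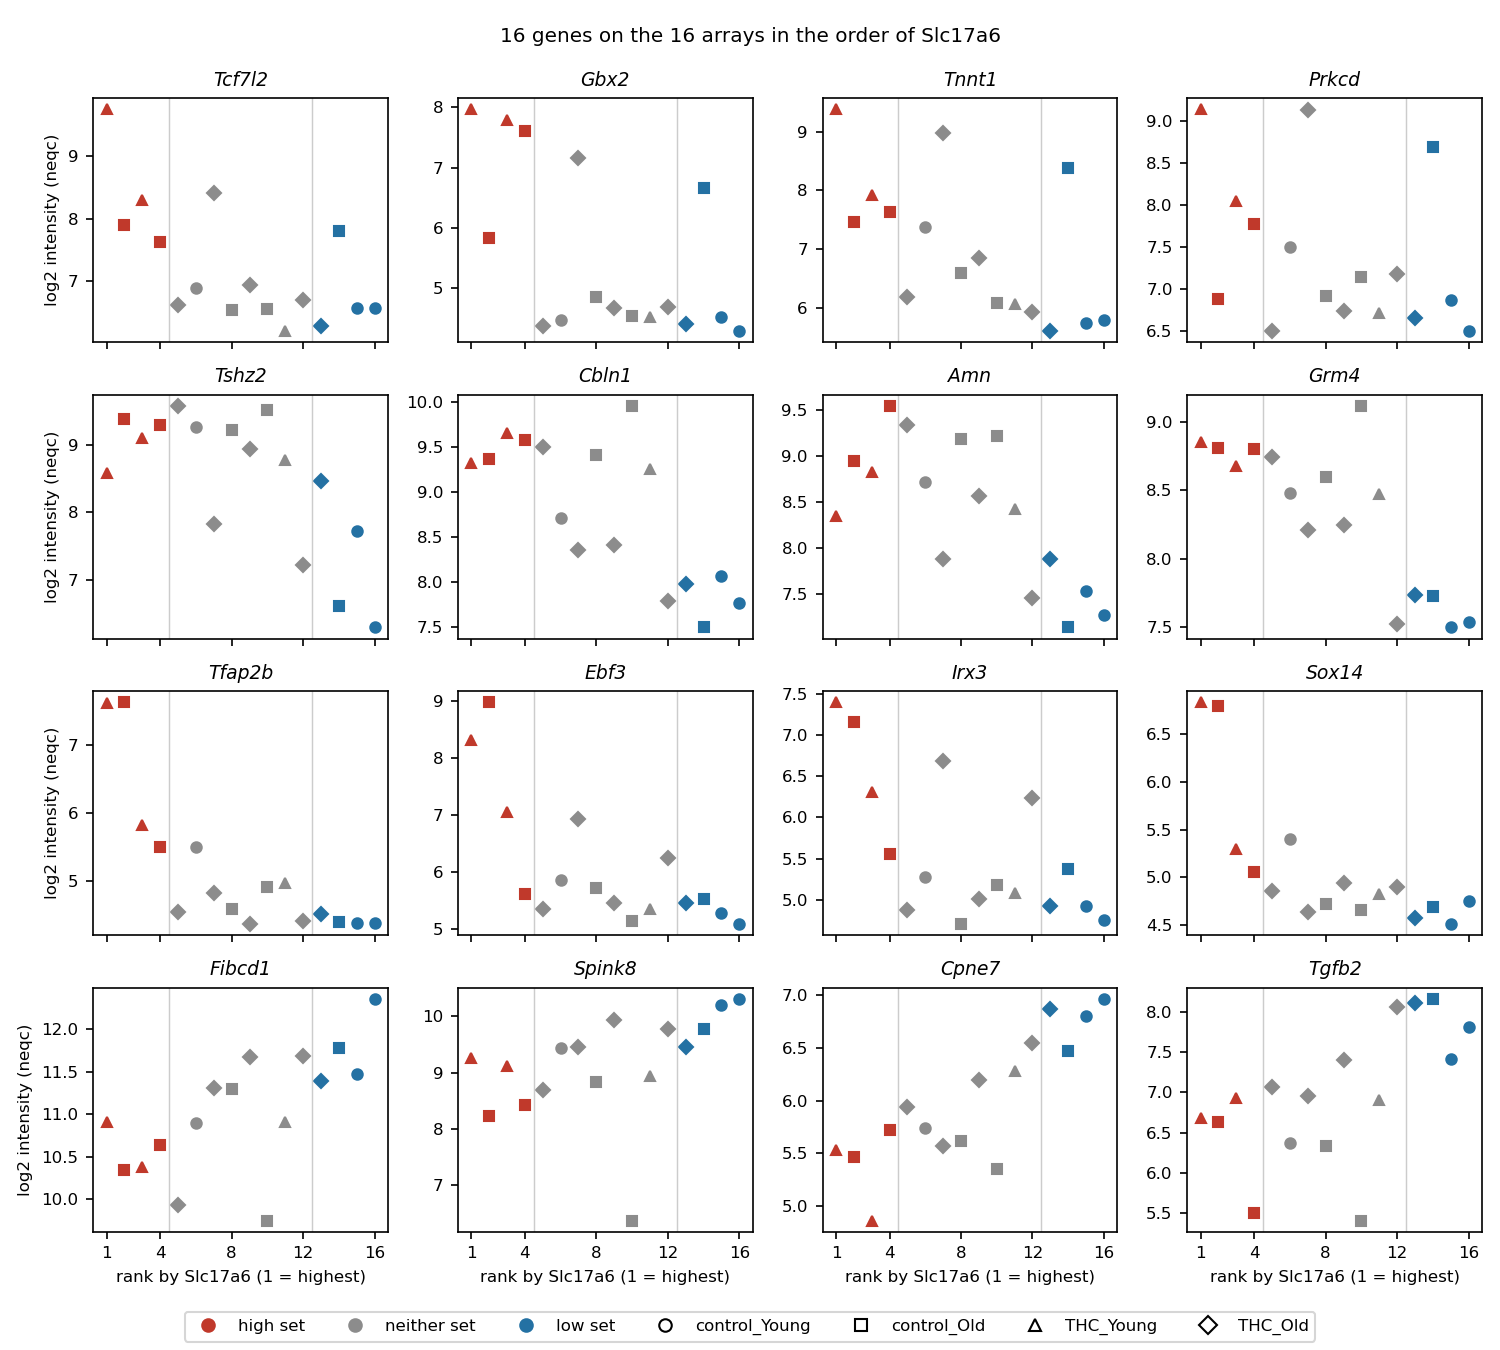
Log2 intensity after neqc of 16 genes on each of the 16 arrays, in rank order of Slc17a6, with vertical lines at the borders of the sets. In the panels of Tcf7l2, Gbx2, Tnnt1 and Prkcd, control_Old 3 of the low set and THC_Old 1 of neither set stand high, and in those of Tfap2b and Sox14 THC_Young 1 and control_Old 4 lie above all other arrays.

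The other 7 genes with the largest positive differences included genes of signalling and synaptic proteins and of enzymes. Ret, the receptor of GDNF family ligands, differed by 1.29 with 7.89 on THC_Young 1 and at most 6.55 on the other high arrays. The neuropeptide gene Adcyap1, which encodes PACAP, was at 7.31, 7.33, 7.84 and 7.47 against 6.62, 6.44, 6.08 and 5.71, a difference of 1.28. The morphogen gene Shh differed by 1.26, and Hs3st3b1 and Hs3st3a1, which encode heparan sulfate sulfotransferases, by 1.33 and 1.25. Insyn2b, of an inhibitory synapse gene family, differed by 1.43 and Sowahb, of an ankyrin repeat protein, by 1.34. A second Ret probe differed by 0.76 with no overlap, and a second Shh probe by 0.18 with overlap.

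Channel and synaptic genes of thalamocortical relay neurons had a higher mean for 15 of 18 tested, with a median of 0.29. Their list mean, like that of the subiculum and retrosplenial list, separated the sets. It ran from 8.12 to 8.50 on the high and from 7.78 to 8.03 on the low arrays. The 3 of 18 higher without overlap, against 6.45% of all genes, were Cbln1, Pvalb and Vamp1. Pvalb, the calcium-binding protein parvalbumin, was at 12.00, 11.31, 11.39 and 11.29 against 10.72, 10.60, 10.79 and 10.62, a difference of 0.82. Vamp1, a vesicle fusion protein of fast neurons, differed by 0.76. Of the 13 interneuron markers, Pvalb was the only one higher without overlap, and the neuropeptide gene Cck was lower without overlap, by −0.51. Over all genes the shares without overlap were 6.45% higher and 2.76% lower.

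Genes lower in the high set included several of hippocampal pyramidal and granule cells. Fibcd1, which encodes a receptor for acetylated sugars and marks CA1, was at 10.91, 10.35, 10.38 and 10.64 against 11.40, 11.78, 11.47 and 12.36, a difference of −1.18. Spink8, a protease inhibitor gene, was at 9.26, 8.22, 9.11 and 8.42 against 9.45, 9.77, 10.21 and 10.31, also −1.18. C1ql3, a synaptic organizer gene of granule cells, was at 6.25, 6.34, 6.32 and 5.68 against 7.88, 7.27, 6.78 and 7.40, a difference of −1.19, with a second probe at −0.50 and overlap. Fibcd1 and C1ql3 were single members of their lists, since 1 of 8 CA1 genes and 1 of 10 granule cell genes lay lower without overlap, against 2.76% of all genes, and the medians of those lists were 0.13 and −0.13.

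Of 14 CA3 and CA2 genes, 10 had a lower mean, with a median of −0.27, and 3 lay lower without overlap, against 2.76% of all genes. The 3 were the copine gene Cpne7, the pentraxin gene Nptx1 at −0.67 and the kainate receptor gene Grik4 at −0.66. Cpne7 was at 5.53, 5.46, 4.86 and 5.72 against 6.87, 6.47, 6.80 and 6.96, a difference of −1.38, and the other 8 arrays ran from 5.35 to 6.54 with a median of 5.84. The mean of the whole list overlapped, at 7.77 to 8.12 on the high and 8.001 to 8.56 on the low arrays.

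Camk2a, the kinase of hippocampal long-term potentiation, was at 10.81, 10.63, 10.94 and 11.25 against 11.67, 11.52, 11.55 and 11.97, a difference of −0.77 with no overlap, and 2 other probes differed by −0.76 and −0.15 with overlap. The AMPA receptor gene Gria1 differed by −0.44 and the NMDA receptor gene Grin2b by −0.50, both without overlap. In the list of excitatory synapse genes 8 of 13 had a lower mean and 3 lay lower without overlap, against 2.76% of all genes. Grm4 was the one higher without overlap.

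The largest negative differences without overlap were in Tgfb2, a growth factor gene, at 6.68, 6.63, 6.93 and 5.50 against 8.11, 8.16, 7.41 and 7.82, and in Myo5b, a vesicle motor gene, at 8.14, 7.95, 8.35 and 8.68 against 9.45, 9.86, 9.90 and 9.62. The differences were −1.44 and −1.43, and 2 further Myo5b probes differed by −0.99 and −1.66. The carbonic anhydrase gene Car12 differed by −1.30, the thrombospondin repeat gene Thsd4 by −1.27, the chitinase gene Chia1 by −1.21, Npcd by −1.20 and the cytokine gene Il16 by −1.20. Second probes of Car12, Thsd4, Chia1 and Npcd were also lower without overlap, by −1.27, −0.88, −0.58 and −0.77.

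Markers of adjoining tissue and of non-neuronal cells were compared as well. The choroid plexus list had a median of −0.89, with 15 of 18 genes lower in the mean, but only Car12 had no overlap, against 2.76% of all genes. Its most abundant gene Ttr, which encodes transthyretin, was at 11.37, 6.96, 12.83 and 6.11 against 5.90, 13.90, 14.48 and 11.36, so both sets held arrays with and without a strong signal. Meningeal and fibroblast genes were higher in the mean for 14 of 16, with a median of 0.31. Of the 16, 2 lay higher with no overlap, against 6.45% of all genes. These were the forkhead gene Foxc1 at 0.78 and the retinoic acid synthesis gene Aldh1a2 at 0.55. Myelin genes were higher in the mean for 11 of 13, all with overlap, and microglial genes lower for 12 of 12, all with overlap. As a list mean, microglial genes did separate the sets, with 7.55 to 7.62 on the high and 7.64 to 7.98 on the low arrays. Of 9 hypothalamic genes 4 were higher and 5 lower in the mean, with a median of −0.09, and the releasing hormone gene Trh was between 4.53 and 5.35 on the high arrays and at 4.36, 8.08, 9.35 and 6.97 on the low arrays. The part of these tissues in the differences was not tested.

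The size of many differences depended on the background correction. Without it 5 of the 15 leading higher genes, Ebf3, Tshz2, Cbln1, Amn and Cpne9, and 3 of the 10 leading lower genes, Myo5b, Car12 and Spink8, still differed by at least 1. Ebf3 then differed by 1.19, Irx3 by 0.68, Insyn2b by 0.73, Ret by 0.59, Adcyap1 by 0.72, Cpne7 by −0.60 and Tgfb2 by −0.87, while Cbln1 differed by 1.35 and Myo5b by −1.21.

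The differences were then set against the study groups and slides. The slides are those of the labels: the high arrays lay on slides 1, 2, 2 and 4 and the low arrays on slides 2, 2, 3 and 4, so that 2 high and 2 low arrays shared slide 2 and 1 of each shared slide 4. Within slide 2, Tshz2 differed by 1.81, Cbln1 by 1.56 and Fibcd1 by −0.995. Within slide 4 the same genes differed by 2.81, 1.89 and −1.98. After removal of each study group's mean, 7 probes were called higher and 3 lower, and 3 of the 15 leading higher and 0 of the 10 leading lower genes still differed by at least 1. By group, Cbln1 was 9.41 ± 0.22 (SD, n = 3) in THC_Young, 9.16 ± 0.96 (n = 5) in control_Old, 8.41 ± 0.67 (n = 5) in THC_Old and 8.18 ± 0.48 (n = 3) in control_Young.

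The leading genes were also compared without the arrays of low Xist. With high Xist arrays only, the 15 leading higher genes all differed by at least 1, and 8 of the 10 leading lower genes did. There Tshz2 differed by 1.57, Cbln1 by 1.66, Ebf3 by 2.35, Tgfb2 by −1.07 and Fibcd1 by −1.11. Spink8 at −0.75 and Il16 at −0.67 were the 2 that fell short. That the sign stays is fixed by the choice of genes without overlap, so only the sizes carry information. Of the 18 thalamic markers, 13 differed more among arrays with high Xist than between the high arrays with low Xist and the low set, and 5 differed less. Tcf7l2 differed by 2.23 against 0.96 and Ntng1 by 0.52 against 0.55, with 2 high arrays each, a contrast that was not tested.

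The relation to Slc17a6 could be tested only in the 8 arrays that the sets did not use. A linear slope of each probe on the Slc17a6 value, in log2 units per log2 unit, was fitted with limma to 22624 probes. No probe passed an adjusted p under 0.05 (0 of 22624, 0%), and 459 had an unadjusted p under 0.05 (2.03%). These 8 arrays spanned 10.22 to 11.10 in Slc17a6, and 7 of them lay between 10.76 and 11.10. Even the second Slc17a6 probe, with a slope of 1.25 ± 0.23 (SE), had a limma adjusted p of 0.999, and of 0.0714 in the fit without background correction.

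The slope of Tshz2 was 2.05 ± 0.72 (SE), that of Cbln1 1.29, that of Amn 1.56, that of Tcf7l2 0.67 and that of Fibcd1 −1.09, none past the threshold. The 5 genes with the smallest p were Aldh3a1 (1.34 ± 0.31), Map2k6 (1.09), Prkaa2 (1.05), Celf6 (−0.98) and Cxcr4 (−0.95), and these too did not pass. Map2k6 differed by 0.07 between the sets and Celf6 by −0.14. Of the 7 midbrain dopamine genes only 1 had a positive slope, and their median slope was −0.58, against the direction of the sets.

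Of the 28 called higher genes other than Slc17a6, 24 had a positive slope (85.7%), and of the 21 called lower genes 20 had a negative slope, while 53.5% of all genes had a positive one. Those counts rested on THC_Old 5, the array with the lowest Slc17a6 of the 8. Without it 18 of 28 slopes were positive and 6 of 21 negative. Without THC_Old 5 and THC_Old 3, the 2 arrays farthest from the median, the slopes of Tshz2, Cbln1, Amn and Fibcd1 changed sign to −1.57, −2.71, −1.08 and 1.60. That of Slc6a3 changed from −2.21 to 4.62. In those 6 arrays 991 probes passed, but the 3 arrays of slide 1 were also the 3 highest in Slc17a6, so slide and Slc17a6 cannot be told apart there.

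**Figure D4:**
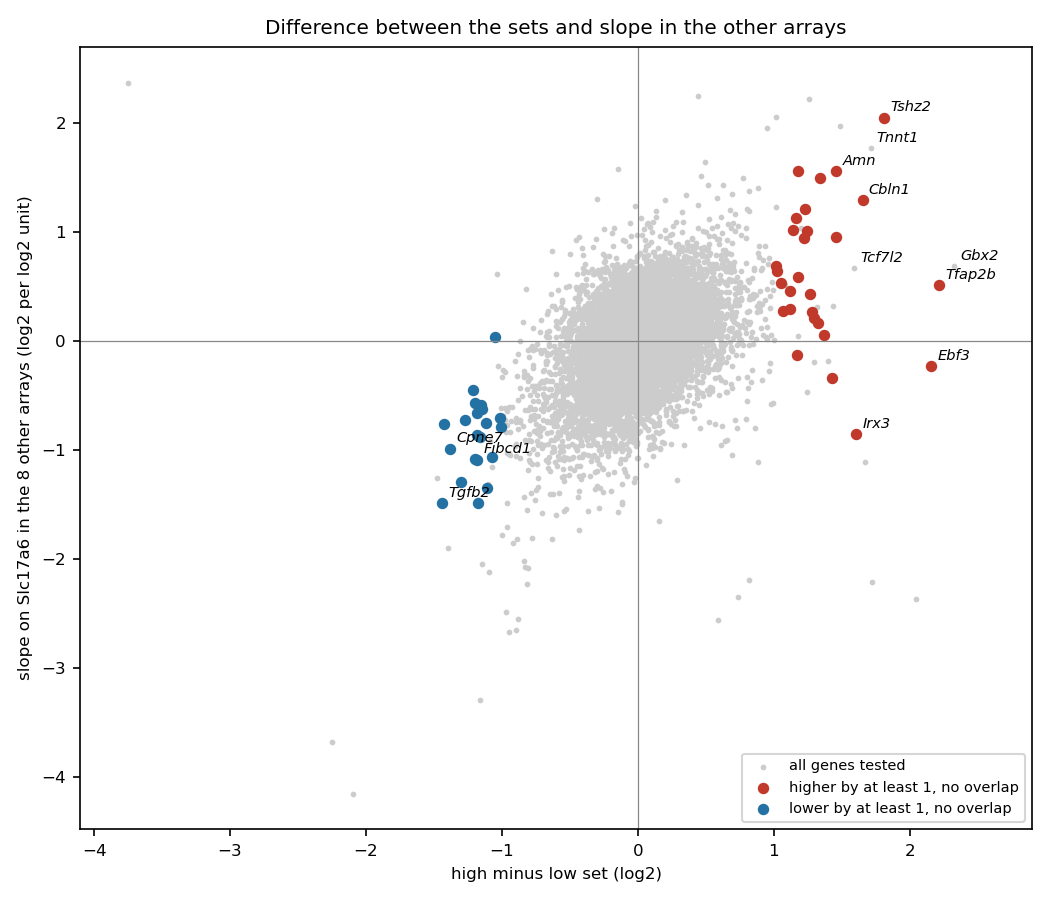
High minus low difference of each of 12019 genes on the horizontal axis and its slope on Slc17a6 in the other 8 arrays on the vertical axis, with called genes in colour. Of the red genes 24 of 28 lie above 0 and of the blue genes 20 of 21 below 0, counts that rest on THC_Old 5, and no slope passed the test.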

How the data were processed

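Biotinylated cRNA of total RNA was hybridized to 16 Illumina bead arrays. Per the file headers, the authors deposited a log2 intensity and a detection p-value for every probe on every array, straight from the scanner. In the first array 26 detection cells held text and counted as missing. The authors' series matrix of log2 values lay within 0.00713 of these intensities after quantile normalization. The submitters' processing notes name Partek without a version. Neither the genome build nor any background subtraction is given in the sources used here.

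Arrays were ranked on the series matrix. Gene values come from limma's neqc with an offset of 16 (limma 3.58.1, R 4.3.3), run on scanner values and detection p-values, over 22625 probes with detection p under 0.05 on at least 3 arrays. Of 45281 probes 34885 carried 1 symbol, 18 several and 10378 none. A gene was represented by its probe with the highest mean. Slopes in the 8 other arrays were tested with limma, two-sided, with Benjamini-Hochberg adjustment over 22624 probes. In simulated data the method recovered large placed differences between sets and, on average, the largest placed slope. The simulated sets had less noise than most named genes, so this checks the computation only. It does not show which differences or slopes could be found in these arrays. The labels name no animal for an array, so p-values measure the spread between these samples only. Plots used Python 3.11.15 and matplotlib 3.10.9.

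Members, lists and alternatives were chosen with earlier results of these data known. Named were the 15 largest positive and 10 largest negative differences without overlap, every tested thalamic marker as a count or value, the 2 largest differences of each list, and the 5 smallest slope p-values. Other list members without overlap, Grm4 among them, and the sex-linked genes were named after their values were seen.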

Additional observations from a re-analysis of the deposited data

Results flagged for a closer look

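In 176 sets of 4 values (88 named genes in the high and in the low set), 15 held 1 array whose gap to the nearest other exceeded Dixon's critical share of 0.829 of the range. Chance flags about 1 in 20 sets, and the genes are not independent.

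The low array control_Old 3 stood apart upward in 4 thalamic markers, with Gbx2 at 6.66, Prkcd at 8.68, Tnnt1 at 8.38 and Zfhx3 at 7.61, and also in Celf6 at 7.46. Among the high arrays control_Old 4 stood apart downward in Gbx2 at 5.83 and in Ociad2, a gene of the mossy cell list, at 9.56. Control_Old 2 stood apart downward in C1ql3 at 5.68, Foxp2 at 4.54 and Rfx3 at 5.64. THC_Young 1 stood apart upward in Pvalb at 12.00 and in Mag, a myelin gene, at 12.36. In the low set THC_Old 2 was highest in Tfap2b at 4.52 and Pou4f1 at 4.45, both not detected there, and control_Young 3 was lowest in Cxcr4 at 4.61.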

How the results depend on the processing

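The sets hold 4 arrays each, and the counts of called probes moved with many choices, but not with all. They stayed at 43 higher and 32 lower without a filter and with the ranking after neqc. With detection p under 0.01 on at least 8 arrays they were 39 and 32, and with slide means removed 42 and 36. Against 43 higher and 32 lower probes, quantile normalization without background correction and the series matrix values each gave 11 and 5. The 3 highest against the 3 lowest arrays gave 88 and 62, and 5 against 5 gave 23 higher. Removal of study group means gave 7 and 3. Within slide 2 the counts were 104 and 151, within slide 4 with 1 array each 326 and 494, and in arrays of 12-month mice 113 and 251, where fewer arrays make no overlap easier. Arrays with high Xist gave 101 and 73, and the high arrays with low Xist against the low set 66 and 119. Leaving out 1 array gave 41 to 78 higher and 34 to 97 lower. The highest were 78 higher without control_Old 2 and 75 without control_Young 2, and 97 lower without control_Young 2, 60 without control_Old 4, 59 without THC_Young 1. The ranking by the second Slc17a6 probe gave 34 and 43. The median of the thalamus list stayed positive in all 23 alternatives, from 0.18 with study group means removed to 0.74 without control_Old 3. The sign of a called gene is fixed under every alternative that takes a subset of the 8 arrays. No slope passed in any alternative with at least 7 arrays. The smallest adjusted p among those was 0.0713, for the second Slc17a6 probe on series matrix values. No paired analysis was possible because the labels give no replicate numbers and the sets are not groups of the study. Bead signals near background limit Tfap2b, Sox14, Pou4f1 and En1, which were not detected on low arrays.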
